A study of Rattus norvegicus with 3 samples.

Results

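Among the regions carrying acetylated lysine 14 of histone 3 (H3K14Ac) in the cerebellum (Cll) of hyperbilirubinemic Gunn rat pups (jj), 611 were called in both jj libraries and had no peak in the control library (ctrl). They were chosen by peak calls alone. Peaks of jj replicate 1 and jj replicate 2 that shared at least 1 bp were joined into 1 region, which gave 31104 regions on chromosomes 1 to 20 and X. Of these, the members are the regions with a peak from each jj library and without 1 bp of a ctrl peak, and they make up 1.96% of the 31104. They cover 423 kb in all.

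Acetylation of lysine 14 neutralizes a charge on the tail of histone H3 and is found mostly at promoters and enhancers of active genes, where bromodomain proteins can bind acetylated histones. In the postnatal Cll of rodents, granule cell precursors still divide and Purkinje cells grow their dendrites, so many genes change their activity in this period. The Gunn strain carries a mutation in the bilirubin UDP-glucuronosyltransferase gene, and homozygous jj pups lack bilirubin conjugation and are jaundiced from birth.

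The libraries came from Gunn rats (Hds Blue:Gunn-UDPGTj) at 9 days after birth (P9). Library jj replicate 1 held the Cll of 1 jj animal, jj replicate 2 a pool of 3 jj animals, and ctrl a pool of 3 normobilirubinemic littermates. The labels name no treatment in any of the 3 libraries. The jj libraries were sequenced in 2 runs and ctrl in 1 run, so condition and run cannot be told apart. As ctrl is 1 library, it has no replicate to give a spread, and jj was not tested against it. The tissue was whole Cll, so fewer cells carrying the mark and less of the mark in each cell cannot be told apart. Cell type markers were not tested, as the peak lists name no gene.

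The depth behind each call was not measured directly, because the lists hold no read totals. On the assembled chromosomes, jj replicate 1 had 29428 peaks covering 20.5 Mb, jj replicate 2 had 13537 peaks covering 8.44 Mb and ctrl had 20871 peaks covering 13.0 Mb. The background coverage of MACS2, worked back from the most frequent values of each list, came to 0.589 fragments at a position for jj replicate 1, to 0.345 for jj replicate 2 and to 0.539 for the ctrl library. The ctrl list is longer than that of jj replicate 2 and shorter than that of jj replicate 1. The background coverage had the same order, at 1.09 times that of ctrl in jj replicate 1 and 0.641 times in jj replicate 2. How far it follows depth was not tested. Strength is given below as fold enrichment over the coverage expected by MACS2 and as −log10 q, both averages over a broad peak. The sources used here do not state whether an input library served as control for the own lists, so what the expected coverage rests on at a site is not known. A fold in one library is not directly comparable with a fold in another.

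Missing from a single library was not rare for regions called in the other 2. When the 3 lists were joined, 11800 regions had a peak of both jj libraries, and 611 of them (5.18%) had none in ctrl. Of the 15171 regions with a peak of jj replicate 1 and ctrl, 3982 (26.2%) had none in jj replicate 2. Of the 11346 regions with a peak of jj replicate 2 and ctrl, 157 (1.38%) had none in jj replicate 1. The order of these shares is the reverse of the order of list lengths, and the share missing in ctrl lies between the shares missing in the jj libraries.

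The members were weak for regions called in both jj libraries. Their median −log10 q was 2.96 in jj replicate 1, with quartiles of 1.72 and 6.28, and 2.36 in jj replicate 2, with quartiles of 1.89 and 3.21. The 11185 regions called in both jj libraries and in ctrl had medians of 20.8 and 7.55. Median folds were 4.16 in jj replicate 1 and 4.03 in jj replicate 2 for the members, and 8.46 and 6.37 for the regions of all 3 libraries. In contrast, the 13642 jj-only regions of jj replicate 1 alone had a median −log10 q of 1.62, and the 1512 of jj replicate 2 alone had 1.77. The members thus lay above the jj-only regions of 1 library and below the regions of all 3. Since a peak in each jj library was required, this order is a description of the choice and was not tested.

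The share of regions without a ctrl peak fell steeply with strength. Regions of both jj libraries were sorted by the smaller of their 2 values of −log10 q. From 1 to 2, 300 of 722 regions (41.6%) had no ctrl peak. From 2 to 3 this was 169 of 936 (18.1%), from 3 to 5 it was 107 of 2122 (5.04%), and from 5 to 10 it was 35 of 4505 (0.777%). Of the 3511 regions at 10 or more in both libraries, none lacked a ctrl peak. In jj replicate 1 taken alone, 45 members reached 10, the highest at 18.7, and in jj replicate 2 the highest member was at 7.43. Counted over both libraries, 142 members (23.2%) were at 3 or more in each, and 270 were under 3 in each.

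Peaks of 1 jj library were found in the other less often where ctrl had no peak. Of the jj replicate 1 peaks without a ctrl peak and with a −log10 q from 1 to 2, 2.15% of 9472 overlapped a jj replicate 2 peak, against 10.7% of the 1092 with a ctrl peak. From 5 to 10 the shares were 15.6% of 1019 without and 48.0% of 2344 with a ctrl peak, and at 10 or more they were 28.0% of 161 and 91.7% of 10426. Hence, at 10 or more, most jj replicate 1 peaks that ctrl lacked were also lacking in jj replicate 2. That bin has no upper limit, so peaks with and without a ctrl peak are not matched in strength there. From the side of jj replicate 2 the shares were higher. There, 17.7% of 1323 peaks without a ctrl peak at a −log10 q from 1 to 2 were also called in jj replicate 1, against 82.3% of the 429 with a ctrl peak. From 3 to 5 the shares were 68.1% of 210 without and 98.6% of 2092 with a ctrl peak, and from 5 to 10 they were 85.4% of 48 and 99.8% of 4524. The list of jj replicate 1 is longer than that of jj replicate 2, and its part in these shares was not tested.

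The rule requires the peaks of the jj libraries to overlap, so their agreement in position is a description of the choice. Each of the 611 regions consisted of exactly 1 peak from each library. The median overlap of the peaks was 305 bp, or 99.0% of the shorter peak. Their midpoints lay a median of 84 bp apart, with an upper quartile of 227 bp, and within 100 bp in 338 members (55.3%). In 290 regions (47.5%) the shorter peak lay wholly within the longer one, and in 252 of these the inner peak was that of jj replicate 2. A further 62 members (10.1%) overlapped by less than 50% of the shorter peak, the least by 3 bp. For comparison, in the 11123 regions of all 3 libraries with 1 peak from each jj library, the median overlap was 100% of the shorter peak and the midpoints were 37 bp apart. The strength of the members in the jj libraries ranked alike to a moderate degree (Spearman's rho 0.516 for −log10 q over 611 regions, which share the 2 libraries, where the regions of all 3 libraries had 0.807), whereas the widths hardly did (rho 0.107).

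Members had a median width of 536 bp, from 298 to 2673 bp. This lies between the 436 bp of the jj-only regions of jj replicate 1 alone and the 764 bp of the regions of all 3 libraries. The peak of jj replicate 1 was the wider in 474 members, with a median of 468 bp against 352 bp in jj replicate 2. Among the members, width and strength went in opposite directions. The 252 members of up to 500 bp had a median −log10 q of 4.56 in jj replicate 1 and 2.66 in jj replicate 2, and the 107 members wider than 1000 bp had 1.68 and 1.92. Values are averages over a peak, and the width is that of both peaks joined. The part of either in this order was not tested.

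The widest member, chr4:13282327-13284999 on rn4, spanned 2673 bp, and its folds were 3.32 in jj replicate 1 and 3.67 in jj replicate 2. Its peaks of 1247 bp and 1494 bp shared only 68 bp, so most of each peak lay outside the other. The second, chr5:115850658-115853146, held a jj replicate 1 peak of 2489 bp around a jj replicate 2 peak of 395 bp, with folds of 3.18 and 3.23. The third, chr17:89377187-89379576, joined peaks of 1982 bp and 477 bp over 69 bp, with folds of 3.23 and 3.98.

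The 10 strongest members, by the smaller of their −log10 q values, were 301 to 590 bp wide, where all members had a median of 536 bp, and lay on 7 chromosomes. The lowest and highest folds were 5.74 and 8.65 for jj replicate 1, and 6.02 and 6.89 for jj replicate 2. The first was chr2:30415366-30415811, with 8.39 as the fold and 11.9 as the −log10 q in jj replicate 1, and 6.67 and 7.14 in jj replicate 2. The second was chr8:82020113-82020519, with 6.38 and 7.05 in jj replicate 1, and 6.89 and 7.43 in jj replicate 2. At this site the pool of 3 animals gave the higher −log10 q, as it did in 3 of the 10.

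The third was chr3:156880097-156880609, where the fold was 7.48 in jj replicate 1 and 6.51 in jj replicate 2. At chr13:22162134-22162701 the folds were 7.78 and 6.49, and at chr14:32871271-32871571 they were 6.08 and 6.39. The latter was the narrowest of the 10. The next, chr8:106199030-106199378, had folds of 5.75 and 6.02 and lay 1182 bp from a ctrl peak, the closest of the 10.

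At chr14:105821798-105822283 the folds were 7.99 and 6.21. At chr13:81346923-81347465 they were 8.65 and 6.11, with a −log10 q of 13.8 in jj replicate 1. The last were chr11:64579329-64579765, with folds of 8.04 and 6.12, and chr1:100581167-100581756, with folds of 5.74 and 6.23. Across all 611 members, jj replicate 1 had the higher −log10 q in 397 (65.0%). No such share was computed for other regions. The regions of all 3 libraries also had the higher median in jj replicate 1, at 20.8 against 7.55 in jj replicate 2.

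The rule has an edge at the limit of the jj lists and an edge at the ctrl peaks. At the first, the members with the lowest smaller −log10 q were chr4:172127586-172128350, with 4.99 in jj replicate 1 and 1.00 in jj replicate 2, chr20:52024550-52025329, with 4.43 and 1.02, and chr1:267664268-267664790, with 1.62 and 1.02. At the second, just outside, were regions of both jj libraries that ctrl peaks overlapped least. The least was chr2:171967253-171967697, where 38 bp lay under a ctrl peak of −log10 q 1.85, and the jj values were 1.68 and 1.69. It was followed by chr11:2565112-2566230 with 53 bp under a ctrl peak of 1.75, and by chr6:140606557-140607122 with 70 bp under a ctrl peak of 3.32. Of the 11185 regions removed by ctrl, 473 (4.23%) were removed only by ctrl peaks with a −log10 q under 3.

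The authors also called each jj library with ctrl as the control, so that the ctrl coverage counts at a site even where ctrl has no peak of its own. The commonest folds of these lists are over the background of the jj library itself, but other folds can be over the ctrl coverage at the site, so what a fold is over can differ between regions. Folds in these lists are called folds against ctrl below after the list they come from. In the list of jj replicate 1 against ctrl, 216 members (35.4%) were called, where 37.5% of all 31104 jj regions were. The members' share is close to this background with the lists as deposited. When −log10 q had to reach 3 in all own lists it was below it, at 49.4% where 62.1% of all jj regions were called, and with lists of equal size above it, at 65.1% where 58.5% were. In the list of jj replicate 2 against ctrl, 20 members (3.27%) were called, where 0.389% of all jj regions were. Of the jj-only regions of jj replicate 2 alone, 2.71% were in this list, so a share above that of all jj regions was not particular to the members. The 31104 regions include 13642 of jj replicate 1 alone and 3990 of jj replicate 1 and ctrl, and none of these were in this list. They lower the share over all jj regions, whereas every member has a jj replicate 2 peak by the rule. The members' share was 5.63% when −log10 q had to reach 3 in the jj lists, and 1.36% when ctrl peaks had to reach 5 to remove a region. Both lists held 13 members (2.13%), where 0.222% of all jj regions were in both, and 388 members (63.5%) were in neither, where 62.4% of all jj regions were. The share of all jj regions in both lists is lowered in the same way. It was 0.132% for the regions of jj replicate 2 alone and 0.483% for the regions of all 3 libraries. The same reads enter these lists and the rule, and both lists share the ctrl library, so these counts do not support the choice independently.

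Calls against ctrl went largely with the strength of the region. Of the 201 members with a −log10 q from 1 to 2 in jj replicate 1, 8.96% were called against ctrl in that library, where 10.0% of the 9268 regions of jj replicate 1 alone and 4.17% of the 120 regions of all 3 libraries were. From 2 to 3 the shares were 28.0% of 107 members, 25.5% and 8.40%, from 3 to 5 they were 52.5% of 99 members, 37.4% and 25.2%, from 5 to 10 they were 49.7% of 159 members, 58.1% and 41.3%, and at 10 or more 82.2% of 45 members, 81.0% and 77.4%. Within these bins the members were thus above the regions of jj replicate 1 alone in 3 of 5 and below them in 2, and above the regions of all 3 libraries in each of the 5. The regions of all 3 libraries have a ctrl peak and the members have none by the rule, so the latter order is a description of the choice. The bin at 10 or more has no upper limit and is not matched in strength. Its highest value was 18.7 for members, 33.7 for regions of jj replicate 1 alone and 3030 for regions of all 3 libraries. Over all strengths the order was another, with 35.4% of the members, 18.5% of the regions of jj replicate 1 alone and 71.0% of the regions of all 3 libraries.

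In the list of jj replicate 2 against ctrl, sorted by strength in jj replicate 2, the members were below the regions of that library alone in each bin that held any, and above the regions of all 3 libraries. The latter order is again a description of the choice, as the rule takes members without a ctrl peak. From 1 to 2, 1 of 220 members (0.455%) was called, where 0.826% of the 1089 regions of jj replicate 2 alone and none of 362 regions of all 3 libraries were. From 2 to 3 the shares were 3.32% of 211 members, 5.16% of 349 and 0.130% of 768, and from 3 to 5 they were 5.71% of 140 members, 16.4% of 67 and 0.245% of 2043. From 5 to 10, 4 of 40 members were called, where 3 of only 7 regions of jj replicate 2 alone and 0.289% of 4498 regions of all 3 libraries were. These shares rest on few calls, 20 in all for the members.

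High strength in both jj libraries did not guarantee a call against ctrl. Of the 142 members at 3 or more in each library, the list of jj replicate 1 against ctrl held 64 (45.1%), that of jj replicate 2 held 8 (5.63%), and 77 (54.2%) were in neither. Of all jj regions, whatever their strength, these lists held 37.5% and 0.389%, and 62.4% were in neither. When −log10 q had to reach 3 in the jj lists, the list of jj replicate 1 held 62.1% of the 16195 jj regions left. Of the 9996 regions of all 3 libraries at 3 or more in each jj library, the lists held 74.3% and 0.560%, and 25.6% were in neither. The members' share thus lay below these in jj replicate 1. Above the limit the sets were not matched in strength. Of the 35 members at 5 or more in each, 18 (51.4%) were called in jj replicate 1 and 17 (48.6%) in neither. Of the 7981 regions of all 3 libraries at 5 or more in each, these shares were 78.1% and 21.9%. Of the 10 strongest members, 4 were called against ctrl in jj replicate 1, with folds of 2.97 to 4.83 in that list, and none in jj replicate 2. The leading member on chromosome 2 was in neither list.

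The 13 members called against ctrl in both jj libraries lay on 11 chromosomes and were 424 to 736 bp wide. Their own folds were 3.37 to 6.99 in jj replicate 1 and 4.07 to 6.53 in jj replicate 2, and none of them was among the 10 strongest members. Ranked by the smaller −log10 q of the lists against ctrl, the first was chr2:61759059-61759507. Against ctrl it had a fold of 4.66 and a −log10 q of 3.11 in jj replicate 1, and 6.63 and 4.52 in jj replicate 2. In the own lists its folds were 3.68 and 5.50, and folds are not ranked between libraries.

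The second was chrX:7656064-7656516, with folds against ctrl of 6.62 in jj replicate 1 and 5.20 in jj replicate 2. It lay 1943 bp from a ctrl peak, the nearest of the 13. The third was chr1:214603292-214603885, with folds against ctrl of 3.91 and 6.03. The fourth was chr9:29487530-29488265, at 3.73 and 4.79, which in the own lists had a −log10 q of 5.17 and 6.88.

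The next were chr7:102376309-102376732, with folds against ctrl of 5.43 and 5.26, chr5:108990238-108990805, with 4.84 and 5.16, and chr13:54412700-54413191, with 6.58 and 5.08. All 3 had a −log10 q against ctrl of at least 1.99 in each jj library. They were followed by chr15:90420810-90421239 at 4.04 and 4.92, chr4:86012923-86013594 at 3.67 and 4.91, and chr4:72137078-72137764 at 6.83 and 4.74. The other members called in both, on chromosomes 18, 19 and X, had −log10 q values against ctrl of 1.06 to 1.49 in jj replicate 2, close to the limit of that list. A further 7 members, looked at after the counts were seen, were called against ctrl in jj replicate 2 only, all with a −log10 q under 2 in that list.

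Most members lay far from any ctrl peak on the scale of a nucleosome. The median distance to the nearest ctrl peak was 36192 bp, with quartiles of 14738 and 89275 bp. When ctrl peaks had to reach a −log10 q of 5 to remove a region, the median distance was 80650 bp, over a larger set of 1914 regions. For the ctrl list as deposited it was 48504 bp for the jj-only regions of jj replicate 1 alone and 49496 bp for those of jj replicate 2 alone. Within bins of strength in jj replicate 1 the members were not the nearer below a −log10 q of 10, and were the nearer from 10 on, where the bin has no upper limit. From 1 to 3 in −log10 q the medians were 54346 bp for the members and 53209 bp for the regions of jj replicate 1 alone, from 3 to 10 they were 29666 and 28589 bp, and at 10 or more, with 45 members and 116 other regions, 23439 and 35238 bp. Within 1 kb of a ctrl peak lay 5 members (0.818%), where 2.35% and 4.30% of the jj-only regions of jj replicate 1 and jj replicate 2 alone did. Within 10 kb lay 112 members (18.3%), where 14.7% and 16.9% of the others did, and within 50 kb 348 members (57.0%), where 50.9% and 50.3% did. The members were thus the rarer at 1 kb and the more frequent at the wider distances, over all strengths. On both sides within 50 kb, 105 members (17.2%) had a ctrl peak, 243 had one on 1 side, and 263 (43.0%) had none. Few members thus lay directly beside a ctrl peak.

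The nearest were chr2:42695147-42696322 at 123 bp, chr13:4684129-4684936 at 176 bp and chr7:62025340-62025968 at 380 bp from a ctrl peak. Their −log10 q was 1.52, 1.32 and 5.32 in jj replicate 1 and 2.50, 2.00 and 2.03 in jj replicate 2, and that of the neighbouring ctrl peaks 1.66, 2.71 and 2.37. Only that on chromosome 7 was above the median of all members in jj replicate 1. The farthest were chr15:16514128-16514842 at 1154717 bp, chr2:238022368-238023359 at 1079222 bp and chr2:246145042-246146853 at 1067982 bp. All 3 were weak, with a −log10 q of at most 2.86 in jj replicate 1 and 2.04 in jj replicate 2.

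Strength differed with the distance to ctrl peaks, more in jj replicate 1 than in jj replicate 2. The 62 members within 5 kb of a ctrl peak had a median −log10 q of 5.12 in jj replicate 1 and 2.59 in jj replicate 2, and 35 of them (56.5%) were called against ctrl in jj replicate 1. The 136 members beyond 100 kb had medians of 2.21 and 2.18, and 40 of them (29.4%) were called against ctrl. The 5 members within 1 kb do not follow this order, since 3 of them were under 2 in jj replicate 1. At any distance, 35.4% of all members and 37.5% of all jj regions were called against ctrl in jj replicate 1. No called share of other regions was computed by distance, and the part of strength in the members' shares was not tested. The distance to regions called in all 3 libraries was 105245 bp at the median for the members, 180412 bp for the jj-only regions of jj replicate 1 alone and 227642 bp for those of jj replicate 2 alone. At a −log10 q of 1 to 3 in jj replicate 1, the medians were 201279 bp for 308 members and 216272 bp for 11524 regions of jj replicate 1 alone. From 3 to 10 they were 67203 bp for 258 members and 47640 bp for 2002 regions, and at 10 or more they were 34597 bp for 45 and 58178 bp for 116. Within these bins the members were the nearer in the lowest and the highest and the farther in the middle one. The highest bin has no upper limit and is not matched in strength.

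The median distance from a member to the nearest other member, on either side, was 1667219 bp, 49 members (8.02%) lay within 100 kb of another and 4 within 10 kb. Under the alternatives the share within 100 kb ran from 1.97% when −log10 q had to reach 5 in all own lists to 23.1% when ctrl peaks had to reach 5 to remove a region, and no share for other regions was set beside it. Chained by gaps of at most 50 kb, 32 members formed 15 groups on 9 chromosomes, none larger than 3. Chromosome 1 held 6 of these groups with 14 members. The chained members had a median −log10 q of 3.42 in jj replicate 1 and 2.31 in jj replicate 2, near that of all members, and 6 of the 32 (18.8%) were called against ctrl in jj replicate 1, where 35.4% of all members were.

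There were 2 groups of 3, both on chromosome 1. The first ran from chr1:76259655-76260614, where the folds were 7.06 in jj replicate 1 and 5.54 in jj replicate 2, over chr1:76297171-76297673, with 5.11 and 4.85, to chr1:76330902-76331313, with 4.34 and 3.66. In both libraries the folds ranked in this order along the group. The second comprised chr1:78777197-78777675, with folds of 4.39 and 4.48, chr1:78820595-78820955, with 3.78 and 3.36, and chr1:78840943-78841337, with 5.50 and 5.74. Here both libraries were lowest at the middle site. None of these 6 regions was called against ctrl in either jj library, although a ctrl peak lay within 50 kb of each.

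The closest neighbours, picked out after their distances were seen, were chr10:58113316-58113707 and chr10:58118581-58119574, with 4873 bp between them. Their folds were 6.08 and 4.53 in jj replicate 1 and 5.41 and 5.56 in jj replicate 2. Next were chr1:238963362-238964418 and chr1:238970185-238970684, 5766 bp apart, with folds of 5.16 and 5.86 in jj replicate 1 and 5.10 and 4.82 in jj replicate 2. Of these 4 regions, only the first on chromosome 1 was called against ctrl, in jj replicate 1 at a fold of 3.23.

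Every chromosome held members, from 83 on chromosome 1 to 3 on chromosome 12. Their share of the jj regions of a chromosome was 1.96% over all and between 1.55% and 2.47% on all chromosomes other than chromosome 12, where it was 3 of 690 (0.435%). Chromosome 14 had the highest share (29 of 1172) and chromosome 8 the lowest after chromosome 12 (22 of 1423). Against the length spanned by jj regions, there were 2.25 members per 10 Mb over all, 3.10 on chromosome 1 and 0.641 on chromosome 12. Chromosome 12 also had the densest ctrl peaks, at 121 per 10 Mb. Over the 21 chromosomes, however, the density of members did not follow that of ctrl peaks (Spearman's rho 0.018, a description of chromosomes that share all 3 libraries).

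The 3 members of chromosome 12, looked up after their number was seen, were chr12:7655041-7655395, with folds of 5.02 in jj replicate 1 and 3.70 in jj replicate 2, chr12:9259362-9260052, with 4.27 and 4.49, and chr12:42446896-42447323, with 6.53 and 4.81. The first was called against ctrl in jj replicate 1 at a fold of 6.56. Chromosome X stood apart in another ratio. Its 36 members were 1.99% of its jj regions, near the share over all, but only 260 regions of chromosome X were called in all 3 libraries, so there were 13.8 members per 100 of these, where all chromosomes together had 5.46. The sex of the animals is not given in the labels, and its part in this ratio was not tested.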

How the data were processed

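H3K14Ac chromatin of P9 Cll was sequenced in 3 libraries. The authors mapped paired-end reads to rn4 with Bowtie2, filtered duplicates and called broad peaks with MACS2 per library. Versions and options are not given in the sources used here. The deposited lists hold the fold enrichment (a ratio over expected coverage), the −log10 p and −log10 q, and a whole-number score by the authors that was not used.

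Peaks on chromosomes 1 to 20 and X were merged and overlapped at 1 bp in Python 3.11.15 (pandas 2.3.3, numpy 2.4.6), after the code was tested on simulated data. Distances are the bases between intervals, and positions count from 1. The background coverage was solved with scipy 1.17.1 from each list's commonest combination of −log10 p (a Poisson tail) and fold, read as (height + 1) / (background + 1). No test was made, since ctrl is 1 library and the calls chose the members. Members and lists were chosen with earlier results of these data known. Named regions are the 10 strongest by the smaller −log10 q, up to 10 called against ctrl in both libraries, the 3 widest, nearest, farthest and weakest, groups of 3 or more within 50 kb, and 3 regions just removed. The closest neighbours and the regions of chromosome 12 were added after their values were seen. No rn4 genome or annotation was used here, so no gene or sequence is given. The authors' HOMER annotation and enrichment were not analysed here.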

Additional observations from a re-analysis of the deposited data

Results flagged for a closer look

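On the unlocalized and unplaced sequences of rn4, which the report leaves out, 53 of 1835 merged jj regions (2.89%) held a peak of both jj libraries and none of ctrl. They are listed because they lie outside the data the report describes. The rule itself sets the number of ctrl peaks to 0 there, so no ctrl level stands beside the count.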

How the results depend on the processing

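Of 56 alternatives over 6 results, 37 stayed close to the reported value and 19 moved, by 1.5 times for counts and medians or beyond the 95% binomial interval (exact) for shares. The count of 611 was 263 when −log10 q had to reach 3 in all 3 own lists and 152 when it had to reach 5, 142 with a limit of 3 on the jj lists only, 275 with the same number of peaks in each list, and 1914 when ctrl peaks had to reach 5 to remove a region. Fewer peaks enter under a limit, by construction. Without jj replicate 1 or jj replicate 2 the rule cannot be applied, and the peaks of the remaining library without a ctrl peak were 2147 and 14256. The count was 568 to 664 with 50% overlap, with regions within 1 kb of a ctrl peak removed, on every sequence of the build and with jj replicate 1 peaks counted singly.

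The share called against ctrl in jj replicate 1, 35.4%, was 49.4% and 56.6% with limits of 3 and 5 in all lists, 45.1% with a limit of 3 on the jj lists, 65.1% with lists of equal size and 42.6% with ctrl limited to 5. The share of all jj regions, 37.5%, was 62.1% and 67.4% with limits of 3 and 5, 58.5% with lists of equal size, and does not depend on ctrl limits. This was computed after the values were seen, and the cause was not tested. The median distance to ctrl was 80650 bp with ctrl limited to 5, and 30143 to 53916 bp otherwise. With ctrl limited to 5, fewer ctrl peaks are left and the members are 1914, and these changes were not separated. The share within 100 kb of another member, 8.02%, was 4.18% and 1.97% with limits of 3 and 5 in all lists, 3.64% with lists of equal size and 23.1% with ctrl limited to 5. The share called against ctrl in jj replicate 2, 3.27%, was 5.63% with a limit of 3 on the jj lists and 1.36% with ctrl limited to 5. Read totals were not used here, so what depth limits was not tested.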
